A study of Solanum lycopersicum with 12 samples.

Results

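The genes described here are rpl38, RPL8 and RPL3 of tomato, which encode 3 proteins of the large subunit of the cytosolic ribosome. They were taken as every probe set whose symbol in the array's annotation is rpl38, RPL8 or RPL3, which gave 1 probe set per gene, 3 of the 10101 probe sets tested and of the 10209 on the array. The annotation ties them to the NCBI Gene identifiers 544287 for rpl38, 544079 for RPL8 and 778284 for RPL3. The identifier of the RPL3 probe set ends in _s_at, which marks a probe set that can also take signal from related transcripts. The array's own controls for 25S and 17S ribosomal RNA, 1 probe set each, were read beside them.

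Plants of 2 genotypes were compared on an Affymetrix tomato array: PI365967, a wild tomato known for its salt tolerance, and the cultivar Moneymaker. Both are labelled Solanum lycopersicum. The groups were PI365967 with 200 mM NaCl, PI365967 with 0 mM NaCl, Moneymaker with 200 mM NaCl and Moneymaker with 0 mM NaCl. All plants stood for 5 h in dilute Hoagland nutrient solution, bore 6 true leaves and were taken whole, so each signal sums roots and shoots. Each group had 3 arrays, and each array took pooled RNA of 3 plants, so that the spread is between pools and not between plants. In whole plants, fewer cells of a type and less RNA per cell cannot be told apart.

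A ribosome is built from ribosomal RNA and a large set of proteins, each normally present once per ribosome, in a small subunit that reads the mRNA and a large subunit that joins the amino acids. Making ribosomes takes much of the energy of a growing cell, and in yeast the mRNAs of ribosomal proteins are known to fall together, within minutes, under many kinds of stress. RPL3 and RPL8 belong to the core shared by all life, close to the site of peptide bond formation; the reference annotation lists rpl2 and L2 as other names of RPL8. Rpl38 is a small protein found in eukaryotes and some archaea, and in mice its loss is known to affect the translation of a subset of mRNAs, those of Hox genes among them. The 25S rRNA is the main RNA of the plant large subunit, and 17S is the array maker's name for the small subunit RNA.

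Array medians of the deposited intensities ran between 332 and 630.9, and Pearson's r between 2 arrays of a group lay between 0.9909 and 0.9946 over all probe sets tested. Values below are log2(intensity + 16) after quantile normalization of the 12 arrays, unless another scale is named. A level is such a log2 signal, and a difference is salt minus control or PI365967 minus Moneymaker, with its standard error from limma after the ± sign (n = 3 arrays per group). The threshold for calling a probe set was an adjusted p (Benjamini-Hochberg, over the 10101 probe sets) below 0.05. Levels of different probe sets were not compared, because each probe set binds its target with its own strength.

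All 3 genes were lower under salt when both genotypes were averaged, by 12% to 30.2%, and rpl38 differed most. The signal of rpl38 was also more than 2-fold lower in PI365967 than in Moneymaker, with and without salt, while RPL8 and RPL3 passed the threshold in neither genotype comparison. All 3 were called lower under salt in PI365967, and rpl38 was called lower in Moneymaker, where RPL8 and RPL3 differed by -0.15 and -0.16 and did not pass. Of all probe sets, 24% were called lower under salt in PI365967, 31% in Moneymaker and 33.7% for the mean of both salt effects. Between genotypes, 22.5% were called lower in PI365967 under salt and 17.7% without. With no normalization between arrays, no member was called in PI365967. The plot of normalized signals by array shows these levels.

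**Figure D1:**
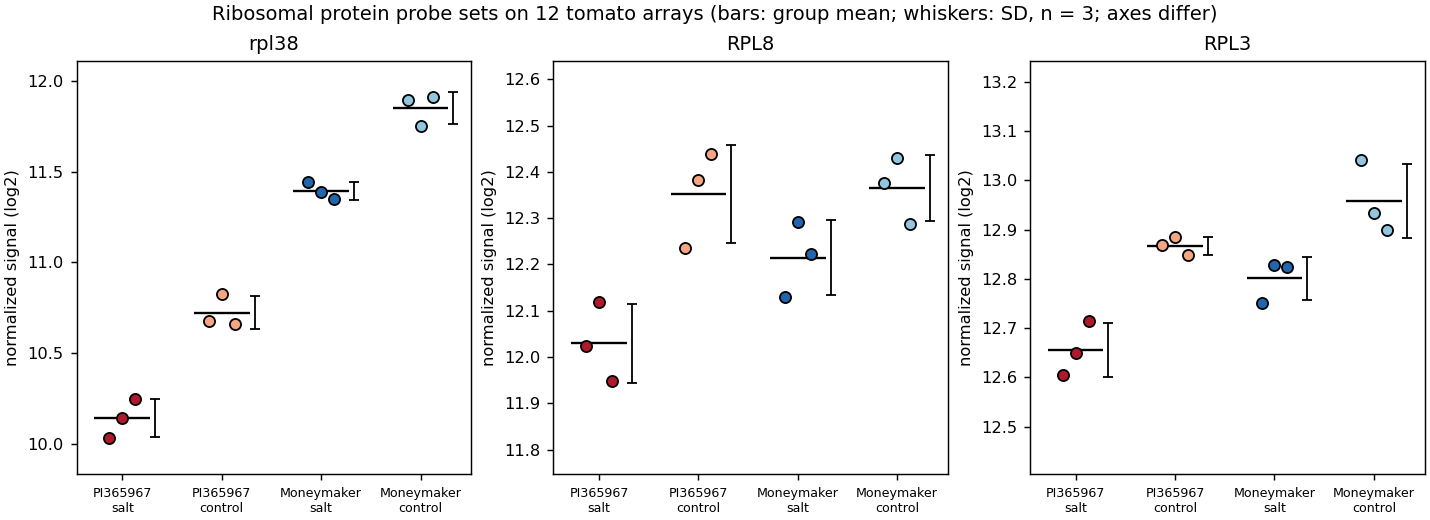
Normalized log2 signal (y axis, a different range per panel) of rpl38, RPL8 and RPL3 on each of the 12 arrays, by group along the x axis; points are arrays, bars group means and whiskers SD (n = 3). The 4 groups of rpl38 do not overlap and lie between 10.04 and 11.91, whereas the groups of RPL8 overlap in part and span 11.95 to 12.44.

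The level of rpl38 was 10.04, 10.14 and 10.25 on the PI365967 salt arrays, against 10.68, 10.83 and 10.66 on the PI365967 control arrays. In Moneymaker it was 11.44, 11.39 and 11.35 on the salt arrays, against 11.89, 11.75 and 11.91 on the control arrays. In both genotypes every salt array thus lay below every control array, and every PI365967 array lay below every Moneymaker array. The same order of genotypes holds in the deposited intensities, where rpl38 had 997, 916 and 1463 in PI365967 with salt, 1828, 1593 and 1322 in PI365967 without, 3046, 2134 and 2757 in Moneymaker with salt and 5452, 3108 and 4157 in Moneymaker without. On that scale, with no normalization, 1 PI365967 salt array (1463) overlaps the PI365967 controls.

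In PI365967, rpl38 was lower under salt by a difference of -0.58 ± 0.08, a signal 33.1% lower (limma, adjusted p = 0.0001335). In Moneymaker the difference was -0.46 ± 0.08, or 27.2% lower (limma, adjusted p = 0.0005197). These salt effects differed by -0.12 ± 0.11 (95% interval -0.38 to 0.13, limma adjusted p = 0.5258), so a stronger fall in either genotype was not detectable with 3 arrays per group. Among all 10101 probe sets, 23.5% moved as much or more in size than rpl38 in PI365967 and 41% did so in Moneymaker.

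Between genotypes, rpl38 was 2.379-fold lower in PI365967 under salt (difference -1.25 ± 0.08, limma adjusted p = 5.467e-07) and 2.185-fold lower without salt (-1.13 ± 0.08, limma adjusted p = 1.577e-06). Without salt, 4.95% of all probe sets differed as much or more in size between the genotypes, and 6.08% under salt. Of the 4 group means, PI365967 salt was lowest at 10.14 ± 0.11 (SD, n = 3), followed upwards by PI365967 control at 10.72 ± 0.09, Moneymaker salt at 11.39 ± 0.05 and Moneymaker control at 11.85 ± 0.09. No 2 neighbours in this order overlap.

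The genotype difference of rpl38 was smaller in the authors' second set of log2 values, deposited for 8085 probe sets of the same arrays, whose making the sources used here do not describe. They come in 1 table per genotype, and whether both were normalized together is not stated; 2115 of the 47433 distinct values of the PI365967 table recur to the last digit in the Moneymaker table. There rpl38 had 11.75, 11.78 and 11.70 in PI365967 with salt, 12.17, 12.20 and 12.18 in PI365967 without, 12.11, 12.20 and 12.13 in Moneymaker with salt, and 12.41, 12.31 and 12.46 in Moneymaker without. The PI365967 control arrays and the Moneymaker salt arrays overlap on this scale, and the salt arrays remain below the controls in both genotypes. With both genotypes in 1 fit, chosen after seeing the data, the genotype difference was -0.41 under salt (limma, adjusted p = 3.242e-05) and -0.21 without (limma, adjusted p = 0.005325). It stayed past the threshold, at a far smaller size than the -1.25 and -1.13 above.

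The salt differences of rpl38 in these second values were -0.44 in PI365967 (limma, adjusted p = 0.0001314) and -0.24 in Moneymaker (limma, adjusted p = 0.00971). The plot of rpl38 in both value sets shows the 4 groups side by side. On this array the amount of transcript and the match of the probes to the sequence of PI365967 cannot be told apart in a genotype comparison. The salt effect within a genotype compares the same sequence.

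**Figure D2:**
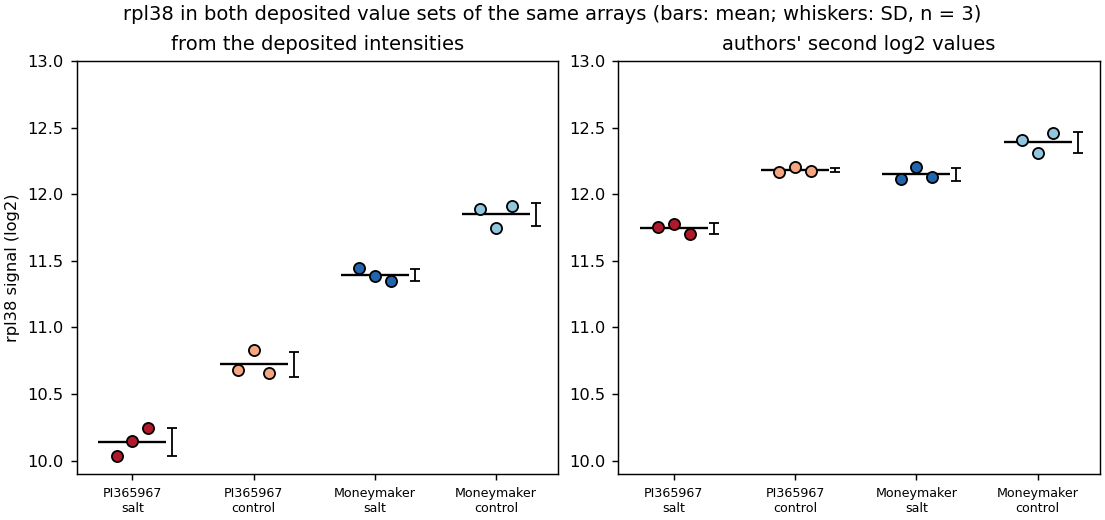
Log2 signal of rpl38 (y axis, the same range in both panels) by group, from the deposited intensities after quantile normalization on the left and in the authors' second log2 values on the right; points are arrays, bars means and whiskers SD (n = 3). The PI365967 control arrays (12.17 to 12.20) reach the Moneymaker salt arrays (12.11 to 12.20) on the right and lie well below them on the left.

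RPL8 had 12.02, 12.12 and 11.95 in PI365967 with salt, against 12.23, 12.38 and 12.44 in PI365967 without. In Moneymaker it had 12.13, 12.29 and 12.22 with salt, against 12.38, 12.43 and 12.29 without. The PI365967 groups do not overlap, and the Moneymaker groups do, at 12.29. In PI365967 the difference was -0.32 ± 0.08, a signal 20% lower (limma, adjusted p = 0.007146), and in Moneymaker -0.15 ± 0.08, which did not pass (limma, adjusted p = 0.1408). The effects differed by -0.17 ± 0.12 (95% interval -0.43 to 0.08, limma adjusted p = 0.3637), so the pass in 1 genotype does not show that the genotypes differ. Among all 10101 probe sets, 45% moved as much or more in size than RPL8 in PI365967 and 76.2% did so in Moneymaker.

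Without salt RPL8 was level between genotypes within the error, at 12.35 ± 0.11 in PI365967 and 12.36 ± 0.07 in Moneymaker (SD, n = 3 each), a difference of -0.01 ± 0.08 with a 95% interval of -0.19 to 0.17 (limma, adjusted p = 0.9223). Under salt the means were 12.03 ± 0.09 in PI365967 and 12.21 ± 0.08 in Moneymaker, and the difference of -0.18 ± 0.08 did not pass (limma, adjusted p = 0.08319). From low to high the group means ran PI365967 salt, Moneymaker salt, PI365967 control and Moneymaker control, and of the neighbours only PI365967 salt and Moneymaker salt do not overlap.

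RPL3 had 12.60, 12.65 and 12.71 in PI365967 with salt, against 12.87, 12.88 and 12.85 in PI365967 without. In Moneymaker it had 12.75, 12.83 and 12.82 with salt, against 13.04, 12.93 and 12.90 without. The salt arrays lay below the control arrays in both genotypes. In PI365967 the difference was -0.21 ± 0.07, or 13.7% lower (limma, adjusted p = 0.02094), a call that was lost without PI365967 salt replicate 1 or 2, or without PI365967 control replicate 1 or 2 (differences of -0.24 to -0.18 over all 12 arrays left out in turn). In Moneymaker the difference of -0.16 ± 0.07 did not pass (limma, adjusted p = 0.062). The salt effects of RPL3 differed by -0.05 ± 0.09 (95% interval -0.26 to 0.15, limma adjusted p = 0.7477). Among all probe sets, 60.6% moved as much or more in size than RPL3 in PI365967 and 75.2% did so in Moneymaker.

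Between genotypes RPL3 averaged 12.66 ± 0.06 in PI365967 and 12.80 ± 0.04 in Moneymaker under salt, and 12.87 ± 0.02 in PI365967 and 12.96 ± 0.07 in Moneymaker without (SD, n = 3 each). Neither difference passed: -0.15 ± 0.07 under salt (limma, adjusted p = 0.09115) and -0.09 ± 0.07 without (limma, adjusted p = 0.317). The group means followed the same order as those of RPL8. Neighbouring groups do not overlap, but their gaps of 0.07 to 0.15 compare with a standard error of 0.07 for a difference.

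Counted together, 3 of the 3 genes were called lower in PI365967, where 24% of all probe sets were called lower. In Moneymaker 1 of 3 was called lower, against 31% of all probe sets. Without normalization 0 of 3 were called lower in PI365967, against 9.17% of all probe sets, and with arrays centred on their endogenous controls 3 of 3 were called lower in Moneymaker, against 43.4%. Salt arrays lay below control arrays without overlap for 3 of 3 genes in PI365967, as for 29% of all probe sets, and for 2 of 3 in Moneymaker, as for 34.8%. For the mean of both salt effects 3 of 3 were called lower, against 33.7%, with differences of -0.52 ± 0.06 for rpl38 (limma, adjusted p = 1.004e-05), -0.24 ± 0.06 for RPL8 (limma, adjusted p = 0.003763) and -0.18 ± 0.05 for RPL3 (limma, adjusted p = 0.004647). No member was called for the difference of the salt effects by limma, where 13.2% of all probe sets were called in either direction. No member had an unadjusted p under 0.05 there either. For the genotype difference, 1 of 3 was called lower in PI365967 under salt, against 22.5%, and 1 of 3 without salt, against 17.7%. PI365967 arrays lay below Moneymaker arrays without overlap for 3 of 3 genes under salt, as for 26.8% of all probe sets, and for 2 of 3 without salt, as for 23.9%.

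Within each array, rpl38 fell further under salt than RPL3. The difference rpl38 minus RPL3 was lower under salt by a mean of -0.29 over both genotypes, with -0.27 in PI365967 and -0.31 in Moneymaker (exact two-sided permutation of arrays within genotype, p = 0.005, the smallest the 400 arrangements can give, and 0.015 adjusted over the 3 pairs). For rpl38 minus RPL8 the mean was -0.21 (exact permutation p = 0.045, adjusted 0.0675), and for RPL8 minus RPL3 it was -0.08 (exact permutation p = 0.12, adjusted 0.12). These pairs were chosen after the data had been seen, and a difference between 2 probe sets shows unequal change, not that either stayed level.

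The other ribosomal proteins that the annotation names by symbol are RPL37, of the large subunit, and RPS25, of the small subunit, which has 2 probe sets. RPL37 had 11.96, 11.89 and 11.82 in PI365967 with salt and 12.02, 12.16 and 12.10 without, against 12.32, 12.29 and 12.21 in Moneymaker with salt and 12.45, 12.43 and 12.36 without. Like rpl38 it was called lower in PI365967 than in Moneymaker, with a smaller difference: -0.38 ± 0.07 under salt (limma, adjusted p = 0.0009553) and -0.32 ± 0.07 without (limma, adjusted p = 0.004234). Its salt differences were -0.20 ± 0.07 in PI365967 (limma, adjusted p = 0.03591), a call lost without PI365967 salt replicate 2 or 3 or PI365967 control replicate 2 or 3, and -0.14 ± 0.07 in Moneymaker, which did not pass (limma, adjusted p = 0.1171).

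RPS25 was called lower under salt in both genotypes on both of its probe sets, by -0.34 ± 0.07 and -0.31 ± 0.06 in PI365967 and by -0.26 ± 0.07 and -0.40 ± 0.06 in Moneymaker (the _at probe set first, the _s_at probe set second; limma, adjusted p between 0.0002531 and 0.007312). Over the 6 ribosomal protein probe sets of the 5 genes, all 6 were called lower in PI365967, against 24% of all probe sets, and 3 of 6 in Moneymaker, against 31%. Their median difference was -0.31 in PI365967 and -0.21 in Moneymaker, beside medians of -0.0037 and -0.045 over all probe sets tested. The 3 members are among these 6, and the list was chosen with results of these data known, so its direction is a description. The plot of differences shows all 6 probe sets.

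**Figure D3:**
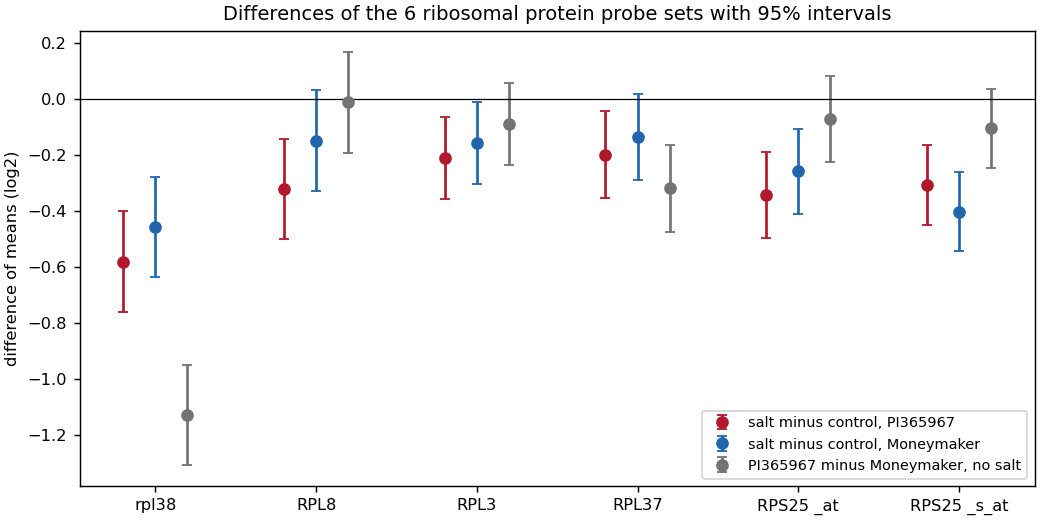
Difference of group means in log2 (y axis) for the 6 ribosomal protein probe sets (x axis), with 95% intervals: salt minus control in PI365967 (red) and in Moneymaker (blue), and PI365967 minus Moneymaker without salt (grey). The salt differences lie between -0.58 and -0.14, and the genotype difference of rpl38 (-1.13) lies far below the other 5.

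The genes around the ribosome moved in several directions. For the mean of both salt effects, 63.8% of all probe sets were called in either direction, and 33.7% of all were called lower. Of 5 translation factor probe sets, 2 were called higher for it and 1 lower, close to the share of all probe sets. The higher ones were eIF-5A1 (0.38 ± 0.07, limma adjusted p = 0.0004319) and eIF-5A4 (0.12 ± 0.04, limma adjusted p = 0.03265), which encode eIF-5A, a factor that helps the ribosome through difficult peptide bonds. The call of eIF-5A4 was lost without each of Moneymaker salt replicate 1, Moneymaker control replicates 1 and 2, PI365967 salt replicate 3 and PI365967 control replicates 1 and 3, left out singly. It was also lost with the replicate number as a block (limma adjusted p = 0.0522), and its difference turned to -0.03 with arrays centred on their endogenous controls. The lower one was eIF4E1, encoding a protein that binds the cap of mRNAs (-0.39 ± 0.06, limma adjusted p = 0.0001606). Among aminoacyl-tRNA synthetases, which load tRNAs with amino acids, only LysRS, for lysine, is named in the annotation. It rose by 3.11 ± 0.22 in Moneymaker (limma, adjusted p = 3.801e-07), and its difference in PI365967 was 0.37 ± 0.22 (limma, adjusted p = 0.1867).

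Ribosomal RNA has no long poly(A) tail as a rule, and the RNA was primed with oligo(dT), so the 2 rRNA probe sets do not measure the amount of rRNA in the plants. The 25S control had deposited intensities of 38.9, 54.1 and 181 on the PI365967 salt arrays, against 55.2, 29.7 and 34.2 on the PI365967 control arrays. In Moneymaker it had 131, 197 and 252 on the salt arrays, against 57.1, 42.1 and 54.4 on the controls. All Moneymaker salt arrays were above all Moneymaker controls, whereas in PI365967 only salt replicate 3 stood clear of the controls as deposited. The 17 Tag control probe sets, for sequences foreign to the plant, had medians of 1.42 to 3.795 per array and reached 8.779 to 30.22, so 25S lay above the brightest of them on every array.

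After normalization 25S was higher under salt by 0.82 in PI365967 and by 1.91 in Moneymaker, each with an exact two-sided permutation p of 0.1, the smallest that 3 against 3 arrays can give. The mean of both was 1.37 (exact permutation within genotype, p = 0.005, the smallest possible). Without PI365967 salt replicate 3, the PI365967 difference was 0.44 and the mean of both 1.17. The gap of -1.09 between the genotypes' salt effects was not tested.

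The 17S control had deposited intensities of 14.5, 10.9 and 60.2 in PI365967 with salt and 28.2, 27.0 and 26.5 without, against 37.6, 40.3 and 30.9 in Moneymaker with salt and 30.7, 20.4 and 23.1 without. On PI365967 salt replicate 1 and PI365967 control replicate 1 it did not exceed the brightest Tag probe set. After normalization it differed under salt by -0.14 in PI365967 (exact permutation p = 0.9) and by 0.55 in Moneymaker (exact permutation p = 0.1), with a mean of 0.21 (exact permutation p = 0.415). The PI365967 difference was -0.51 without PI365967 salt replicate 3, the array on which both rRNA controls were brightest in that group. For the members that array had the highest rpl38 and RPL3 and the lowest RPL8 of its group, and without it the salt differences in PI365967 were -0.63 for rpl38, -0.28 for RPL8 and -0.24 for RPL3, all still called.

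**Figure D4:**
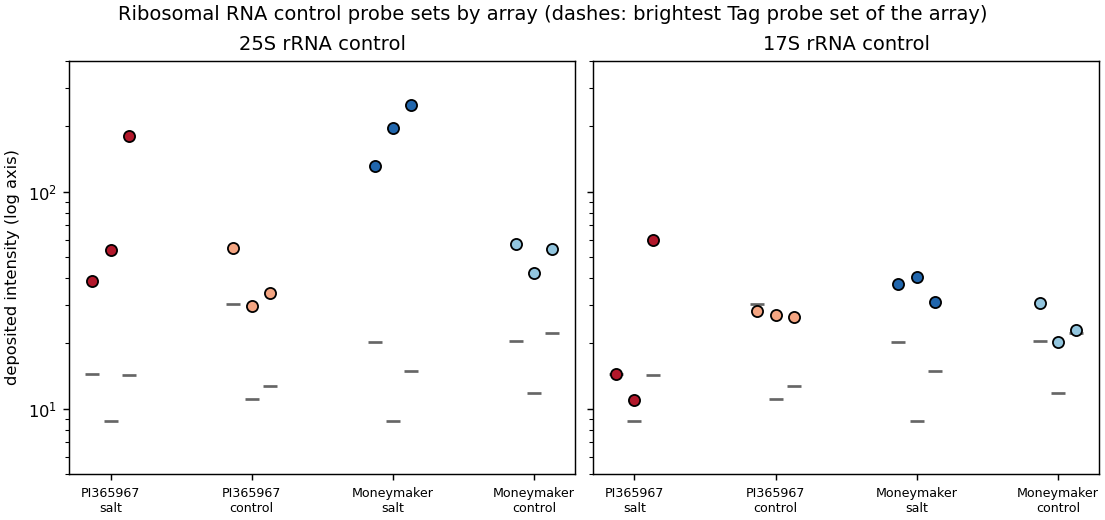
Deposited intensity (y axis, log scale) of the 25S (left) and 17S (right) ribosomal RNA control probe sets on each array, by group; points are arrays, and grey dashes mark the brightest Tag control probe set of the same array. The Moneymaker salt arrays (131 to 252) lie above the Moneymaker controls (42.1 to 57.1) for 25S, and in PI365967 salt replicate 3 (181) stands apart.

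Relative to the 25S signal the members were lower under salt, and the larger part of each difference was the rise of 25S itself. Without normalization 25S was higher under salt by 0.74 in PI365967 and by 1.60 in Moneymaker. On that scale rpl38 differed by -0.50 and -0.65, RPL8 by -0.33 and -0.40, and RPL3 by -0.23 and -0.34, in the same order. Taken within each array as deposited, in log2(intensity + 16), rpl38 minus 25S had 4.20, 3.73 and 2.91 in PI365967 with salt, against 4.69, 5.14 and 4.74 without. In Moneymaker it had 4.38, 3.34 and 3.37 with salt, against 6.22, 5.75 and 5.89 without. The groups do not overlap within a genotype, and the group means were lower under salt by -1.24 in PI365967 and -2.26 in Moneymaker. For RPL8 these differences were -1.07 and -2.00, and for RPL3 -0.97 and -1.94, in PI365967 and Moneymaker in that order. Without PI365967 salt replicate 3, a choice made after the data had been seen, the PI365967 differences were -0.89 for rpl38, -0.60 for RPL8 and -0.54 for RPL3. Against 17S the Moneymaker differences were -1.02 for rpl38, -0.76 for RPL8 and -0.70 for RPL3. In PI365967, where 17S was not above the brightest Tag probe set on 2 arrays, the direction against 17S depends on salt replicate 3: RPL8 had -0.21 with it and 0.17 without it, RPL3 had -0.10 and 0.24, and rpl38 had -0.38 and -0.11.

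Other array controls, the endogenous controls used for centring, were placed on the same normalized scale. The 5 probe sets of the elongation factor EF1-alpha, which brings tRNAs to the ribosome, differed under salt by -0.02 to 0.10 in PI365967 and by 0.00 to 0.04 in Moneymaker. The 3 ubiquitin probe sets were higher by 0.96 to 1.14 in PI365967 and by 1.00 to 1.25 in Moneymaker. The 3 for actin differed by -0.04 to 0.01 and -0.09 to 0.16, and the 3 for GAPDH by -0.28 to -0.18 and -0.20 to -0.12, in PI365967 and Moneymaker in that order. The 3 for GlutTrans differed by -0.13 to 0.03 and 0.14 to 0.41, and the 3 for PhyB2 by -0.03 to 0.19 and -0.41 to 0.01, in the same order. The PhyB2 probe sets PhyB2_5 and PhyB2_M had deposited intensities of at most 14.8 and 10.8. These lie in the range that the Tag probe sets reached, so their small differences say little about that transcript. The members' own differences ran from -0.58 to -0.21 in PI365967 and from -0.46 to -0.15 in Moneymaker, with rpl38 the lowest in each. For the mean of both salt effects the GAPDH probe sets differed by -0.23 to -0.15. RPL8 (-0.24) and RPL3 (-0.18) were close to these, and rpl38 (-0.52) was lower.

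Organ markers moved with salt too. Over all probe sets, 24% were called lower under salt in PI365967 and 31% in Moneymaker. Of 6 shoot marker probe sets (CAB4, CAB5, CAB6A, PETE, PsbQ and PSBO), 4 were called lower in PI365967 and 6 in Moneymaker. Their summed level ran from 15.49 to 15.54 in PI365967 with salt, 15.82 to 15.86 in PI365967 without, 14.83 to 14.98 in Moneymaker with salt and 15.45 to 15.71 in Moneymaker without. Of 7 probe sets taken as root markers by symbol (PT1, PT2, TPx1, TPX2, RSI-1, AMT1-2 and NRAMP1), 4 were called lower in PI365967, and 5 lower and 1 higher in Moneymaker. Their summed level ran from 13.79 to 13.87, 14.16 to 14.23, 13.98 to 14.04 and 14.36 to 14.40 in the same groups. PT1 and TPx1 were the brightest of the 7 and weigh most in that sum. TPx1 matched the listed symbol TPX1 only with letter case ignored. The annotation gives no descriptions, so whether it is that gene was not checked, and the sum may not hold root markers alone. Under salt PT1 differed by 0.01 in PI365967 and 0.30 in Moneymaker, and TPx1 by -0.15 and -0.09. Both sums were lower under salt in both genotypes, and their part in the fall of the ribosomal protein mRNAs was not tested.

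The genes whose profile over the 12 arrays was most like a member's were found among 701 other named probe sets by the root mean square difference of mean-centred log2 levels. For rpl38, whose own root mean square about its mean was 0.65, they were MKK4, a MAP kinase kinase (0.24), h52 (0.26) and CS2 (0.29). For RPL8, with 0.15, they were ArcA1 (0.06), mMDH1, mitochondrial malate dehydrogenase (0.08), and TPx1 (0.09). For RPL3, with 0.12, they were ACT (0.06), EIL4, an EIN3-like protein (0.07), and NDK, nucleoside diphosphate kinase (0.07). RPL8 and RPL3 vary little, so many flat profiles lie close to theirs. Without salt, MKK4, h52 and CS2 differed between genotypes by -1.03, -0.79 and -0.86, beside -1.13 for rpl38. Their salt differences were -0.31, -0.85 and -0.17 in PI365967 and 0.04, -0.70 and -0.33 in Moneymaker. MKK4 thus shared the genotype difference of rpl38 but not its fall under salt in Moneymaker.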

How the data were processed

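Intensities are the authors' deposited linear values, 1 per probe set and array; the sources used here do not give background correction or probe summary. The authors also deposited log2 values of 8085 probe sets per genotype, used as an alternative. Total RNA was primed with T7-oligo(dT) and labelled as biotin cRNA, per the labels' protocols.

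Intensities became log2(value + 16). Array medians differed by 0.894 in log2, above the limit of 0.2, so the 10101 probe sets that are not controls were quantile normalized (R 4.3.3). The 108 control probe sets were placed on each array's scale by interpolation and stayed out of the tests. Limma 3.58.1 (lmFit, eBayes) fitted 4 group means to 12 arrays with 8 residual and 3.11 prior degrees of freedom, two-sided, with Benjamini-Hochberg adjustment. The rRNA controls had exact permutation tests. The number of arrays limits precision: the median standard error of a salt effect was 0.114. On simulated data with few changed probe sets, the procedure called 4% of steps of 0.25 in each genotype. It called 44% to 50% of steps of 0.5 in size and 90% to 96% of steps of 1. Unchanged probe sets made up 7.55% of the calls in Moneymaker and 2.11% in PI365967. Far more probe sets were called in the real data, so these shares do not carry over to it.

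Named by rule were the members in all contrasts, the rRNA controls, the other ribosomal proteins by symbol, up to 4 called probe sets each way per list and the 3 most alike profiles per member. Members and lists were chosen with earlier results of these data known. The annotation gives no descriptions, so a list of ribosomal proteins by description could not be made, and a list for ribosome assembly held 0 probe sets. Alternatives covered scaling, pseudocount, filter, controls, arrays, replicate block, 25S as covariate and the second values.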

Additional observations from a re-analysis of the deposited data

Results flagged for a closer look

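Salt effects of 2 genes near the ribosome differed between the genotypes by the test of the difference itself, which called 13.2% of all probe sets. They are the only aminoacyl-tRNA synthetase named, LysRS, and 1 of 5 translation factor probe sets, eIF4E1. Of the 6 ribosomal protein probe sets 0 were called. For LysRS, a lysyl-tRNA synthetase, the salt effect in PI365967 minus that in Moneymaker was -2.73 ± 0.31 (limma, adjusted p = 0.0003679), with levels of 9.97 and 9.60 with and without salt in PI365967 and of 11.46 and 8.35 in Moneymaker. For eIF4E1 it was 0.43 ± 0.12 (limma, adjusted p = 0.04271), with salt effects of -0.18 in PI365967 and -0.61 in Moneymaker; with 1 array left out in turn, this call held only without Moneymaker salt replicate 2, PI365967 salt replicate 3 or PI365967 control replicate 3 (0.35 to 0.48 over the 12 arrays).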

How the results depend on the processing

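The salt differences of rpl38 kept their direction under all alternatives run, and their calls held except in PI365967 without normalization between arrays. The median salt difference of all probe sets in Moneymaker was -0.045 as reported, -0.21 with endogenous centring and -0.25 without normalization, and that of the difference of salt effects was 0.0439 as reported and 0.30 without normalization. Of the probe sets called in Moneymaker, 45.6% were higher as reported, 28.4% without normalization and 28.7% with endogenous centring; without salt, 52% of those called were higher in PI365967, against 18.7% and 33.4%.

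In Moneymaker, more members were called under other settings. RPL8 was called with arrays centred on endogenous controls (-0.3588) and in the authors' second values (-0.1514), and RPL3 under both of these (-0.3031 and -0.1352), with a pseudocount of 1 (-0.1575) or 64 (-0.1561) and with a filter on dim probe sets (-0.1571). The endogenous controls include ubiquitin, higher under salt in Moneymaker by 1.00 to 1.25, and GlutTrans, by 0.14 to 0.41. GAPDH differed by -0.20 to -0.12 and PhyB2 by -0.41 to 0.01. Centring shifts all probe sets of an array alike. In Moneymaker RPL8 lay -0.1439 and RPL3 -0.0882 from the median difference of all probe sets, both with this centring and without normalization. The number of members called there was 3 with that centring and in the second values, and 2 with either pseudocount or the filter, against 1 as reported; of all probe sets, 43.4% were called lower there with that centring, 37.1% in the second values, 30.9% and 31.6% with pseudocounts of 1 and 64, and 37.7% with the filter, against 31%. In PI365967 without normalization, rpl38 (-0.5023), RPL8 (-0.3317) and RPL3 (-0.2274) were not called, which gives 0 members, and RPL3 was not called in the second values (-0.0991). Of all probe sets, 9.17% were called lower in PI365967 without normalization, against 24% as reported. For the mean of both salt effects, RPL8 and RPL3 were not called without normalization (-0.3637 and -0.2837) or with the 25S level as covariate (-0.2209 and -0.2705), leaving 1 member under each. Calls fell over the whole array too: 23.9% and 19.3% of all probe sets were called lower under these settings, against 33.7% as reported.

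The difference of salt effects turned positive without normalization for rpl38 (0.1526), RPL8 (0.0640) and RPL3 (0.1126), as for RPL37 (0.1667) and RPS25 on the _at probe set (0.1601); for RPL3 also in the second values (0.0362) and with the covariate (0.0140). Median centring turned the genotype difference without salt to 0.1007 for RPL8 and 0.1050 for RPL3, and the second values called RPL3 there at -0.1182, for 2 members. Of the 8074 probe sets tested in the second values, 25.8% were called lower there, against 17.7% of all as reported. Also reversed were RPL37 in Moneymaker with the covariate (0.0610), the difference of salt effects under median centring for RPS25 on the _s_at probe set (-0.0101), eIF-5A4 (-0.1464) and eIF-5A1 (-0.0583), and eIF-5A4 without normalization in Moneymaker (-0.0771) and with endogenous centring in Moneymaker (-0.0402), in PI365967 (-0.0180) and on average (-0.0291).

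The salt difference in Moneymaker was 1.3336 for 25S with a pseudocount of 64, and for 17S it was 0.8234 with 1 and 0.2771 with 64. The genotype difference without salt was -0.2906 for 25S without normalization, and for 17S it was 0.0934 without normalization, 0.3922 with median centring, 0.3526 with a pseudocount of 1 and 0.1032 with 64. The causes were not tested.

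With each of the 12 arrays left out in turn, the salt difference of RPL3 in PI365967 ran from -0.2429 to -0.1809, and the genotype differences that changed sign ran from -0.0564 to 0.0459 for RPL8 without salt and from -0.0624 to 0.0166 for RPS25 (_s_at) under salt. The difference of salt effects of eIF-5A1 ran from -0.0695 to 0.1254. The mean salt effect of eIF-5A4 was not called without 6 of the 12 arrays.

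Same-numbered arrays of different groups correlated in their deviations at -0.13 to 0.16, over 0.1 in 4 of 18 pairs, and 7 of 12 arrays correlated best with their own number. All 3 pairs of PI365967 control with Moneymaker control were over 0.1 (0.1162 to 0.1625), and no other pair of groups had this for all its pairs. With the replicate block no member's call changed (rpl38 in PI365967 -0.58, limma adjusted p = 0.000619; rpl38 between genotypes without salt -1.13, limma adjusted p = 2.047e-05), and the calls of eIF4E1 (0.43, limma adjusted p = 0.07326) and eIF-5A4 (0.12, limma adjusted p = 0.0522) were lost.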
